A study of Mus musculus with 14 samples.

Results

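The 9 genes described here encode the bone morphogenetic protein (BMP) ligands Bmp2, Bmp3, Bmp4 and Bmp7, the receptors Bmpr1a, Bmpr2, Acvr1 and Acvr2a, and the inhibitor Bambi. They were taken by name from a table of 37680 genes counted in mouse colon epithelium, without regard to their values, and each name matched 1 row. Of the 9, 8 had enough counts to be tested among 15127 genes, and Bmp4 did not.

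BMP ligands are secreted dimers that bring together type I receptors (Bmpr1a, Acvr1) and type II receptors (Bmpr2, Acvr2a) on the cell surface. The type II receptor phosphorylates the type I receptor, which phosphorylates SMAD1, SMAD5 and SMAD8, and these enter the nucleus with SMAD4 and switch on targets such as the Id genes. In the gut the signal is known to be strongest toward the luminal end of the crypt, where it restrains proliferation and favours differentiation, and much of the ligand and antagonist supply is known to come from the stroma below the epithelium.

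RNA-seq was done on epithelium stripped with EDTA from whole colons, filtered to enrich crypts, from mice of 8 to 14 wk on a C57BL/6-enriched background, matched for age and gender. WT mice and mice with epithelial deletion of Smad4, here Smad4 KO, were either kept on water (4 libraries each) or given 2.5% dextran sulfate sodium (DSS), a polysaccharide that injures the colonic mucosa, in the drinking water for 3 d (3 libraries each). The deletion used floxed Smad4 (Smad4 f/f) and a tamoxifen-inducible Cre under the Villin promoter, which is active across the intestinal epithelium, with 0.05 g/kg tamoxifen per day injected for 4 d. The study's treatment scheme shows tamoxifen for the Smad4 KO mice alone, so that, as far as it shows, tamoxifen and genotype cannot be told apart. The labels do not say whether a library came from 1 mouse or from pooled mice, and the p-values measure the spread between these libraries. The question put to the 9 genes is whether the supply and reception of BMP signals differed between genotypes, with and without DSS.

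Total counts ran from 12882827 to 26087231 per library, and mitochondrial genes took 4.05% to 8.23% of them in 11 libraries, 30.6% and 32.8% in WT on water replicates 3 and 4, and 21.4% in Smad4 KO on water replicate 4. The library labelled Smad4 KO on water replicate 1 had 3111 normalized counts of Smad4 (scaled by the TMM method to a common library size), within the range of the 4 WT libraries on water (2332 to 3134), whereas the other 3 Smad4 KO libraries on water had 690.0 to 920.3. After DSS, Smad4 ran from 3349 to 3588 in WT and from 794 to 863 in Smad4 KO, and it was lower in the latter (log2 fold change -2.05 ± 0.09 (SE), adjusted p = 1.5e-05). Since 1 library goes against its label, the fold changes of the members that use it are given with and without it. The study's legends for these data give 4 replicates for WT on water and 3 for Smad4 KO on water. Here 4 libraries carry the latter label. The 9 epithelial markers were detected in every library, with summed normalized counts of 293928 to 464542, against 8.73 to 22.6 for 5 endothelial and 116 to 449 for 6 leukocyte markers. The libraries' names carry letter prefixes whose meaning is not given. All 3 Smad4 KO libraries after DSS and 2 of 3 WT libraries after DSS share the prefix D, and no Smad4 KO library on water does, so that prefix and DSS cannot be told apart within the Smad4 KO.

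Per length of exon, Bmpr1a and Bmp2 had the highest means of the 9 transcripts over all libraries, Bmp4 was nearly absent, and the order of the upper 3 depended on the group. As CPM per kb of exon, averaged over all 14 libraries, the level of Bmpr1a was 11.6 and that of Bmp2 was 10.8. Bmpr1a was the higher of the pair in 6 of 14 libraries, so their order was not fixed. Bmp3 followed at a level of 7.22, below Bmp2 in 10 of 14 libraries and above Acvr2a, at 4.23, in 9. On water Bmp2 had the highest group mean in each genotype, at 10.7 ± 3.48 (SD, n = 4) in WT against 8.55 ± 1.48 for Bmpr1a and 3.86 ± 1.43 for Bmp3. Its mean in Smad4 KO on water was 13.6 ± 4.01 (SD, n = 4), with 9.95 ± 5.01 for Bmp3. After DSS Bmpr1a was highest, at 11.5 ± 0.801 (SD, n = 3) in WT, with Bmp2 at 10.9 ± 2.08. In Smad4 KO after DSS Bmpr1a, at 13.7 ± 1.76 (SD, n = 3), was followed by Bmp3 at 11.1 ± 1.52 and then by Bmp2 at 7.21 ± 1.63. Outside that group the means of Bmpr1a and Bmp2 differed by less than the SD of Bmp2. Below these 3 and Acvr2a came the levels of Acvr1 at 3.00, Bmpr2 at 1.92, Bambi at 1.27, Bmp7 at 0.518 and Bmp4 at 0.0505. Acvr2a stood above Acvr1 in 12 libraries and Acvr1 above Bmpr2 in 13, and the next steps, down to Bmp4, held in 10, 13 and 13 of 14. The level of Bmpr2 rests on an annotated model with 393 noncoding exon bases, against 1000 to 4728 in the other 8 genes, and reads outside the model were not counted.

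Of the 8 tested genes Bmp3 alone was called in the comparison of genotypes after DSS, and it was higher in Smad4 KO. Of all 15127 genes, 0.747% were called in that comparison (edgeR quasi-likelihood test on its 6 libraries, adjusted p under 0.05), 0.331% as higher and 0.416% as lower. DESeq2 called the same 1 member and 3.3% of all genes, and 3 members had an unadjusted p under 0.05 in edgeR, as 15.4% of all genes had. Bmp2 and Bmpr1a did not pass, though their groups did not overlap, which 21.7% of all genes also showed. On water edgeR called no member and 0.00661% of all genes. There 4 of the 8 had an unadjusted p under 0.05, as 20.4% of all genes had, and DESeq2 called 1 of them, Bmp3, and 5.08% of all genes. Without the library labelled Smad4 KO replicate 1 edgeR called no member and 0.0859% of all genes, and 3 members had an unadjusted p under 0.05, as 18% of all genes had. DSS against water gave no called member in either genotype. In WT edgeR called 0% of all genes, 1 member had an unadjusted p under 0.05, as 24.2% of all genes had, and DESeq2 called no member and 11.7% of all genes. In Smad4 KO edgeR called 0.00661% of all genes, 1 member had an unadjusted p under 0.05, as 6.37% of all genes had, and DESeq2 called no member and 0.469% of all genes.

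**Figure D1:**
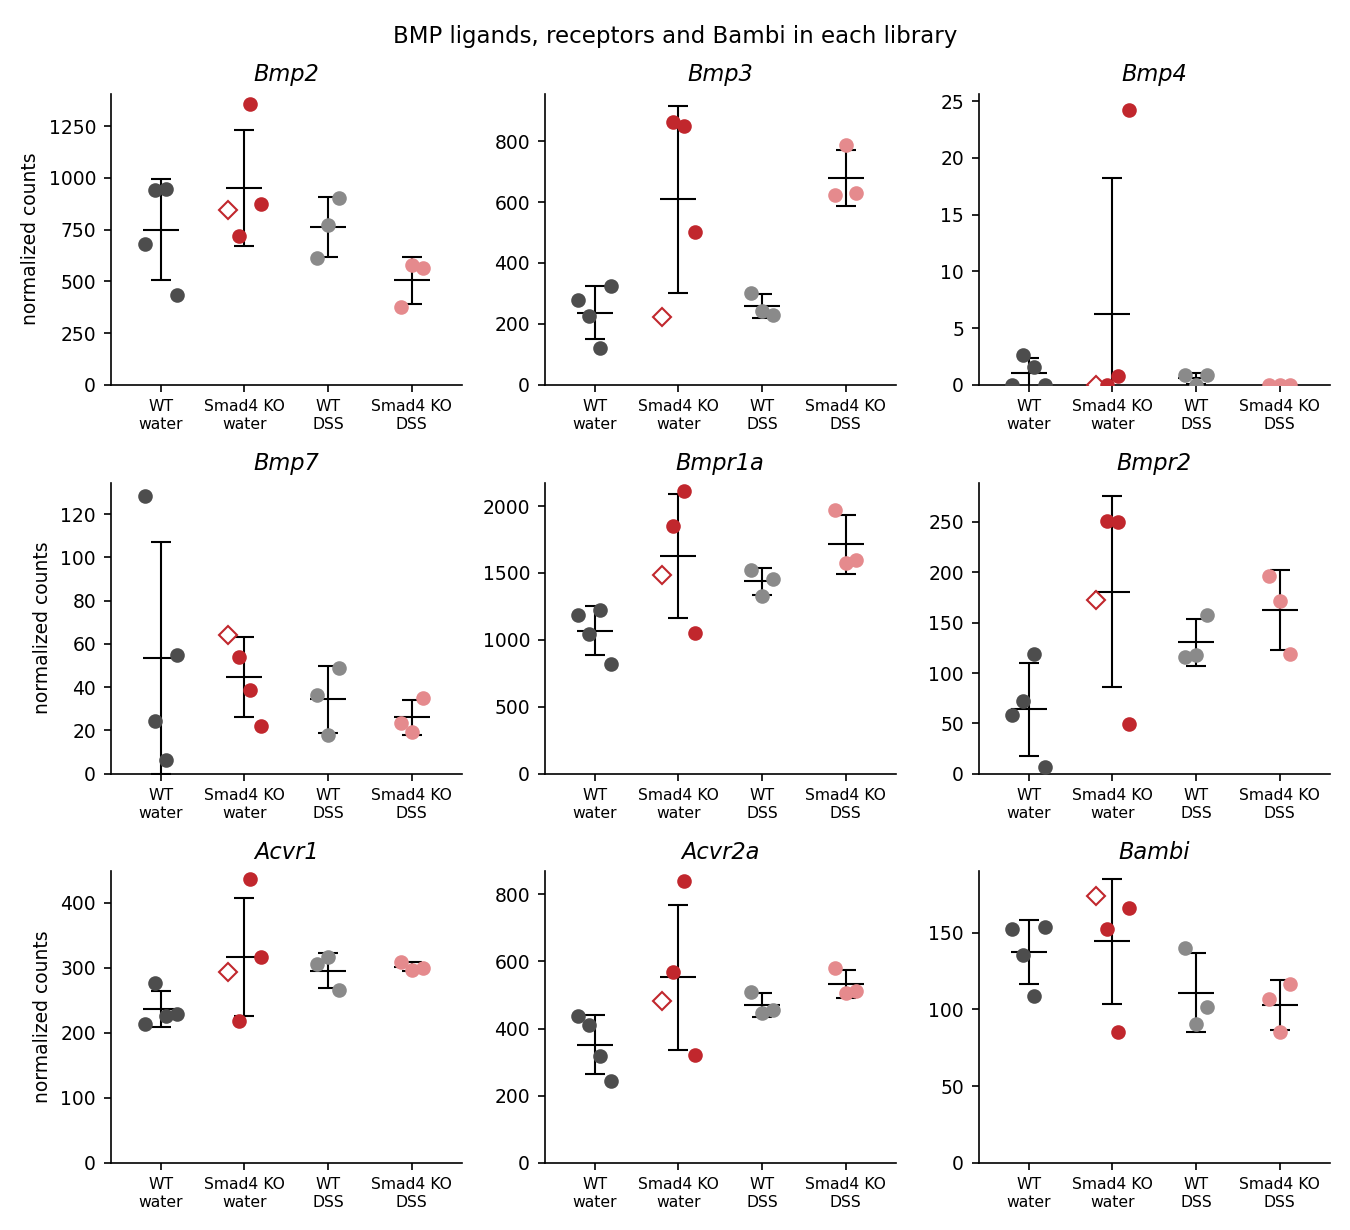
Normalized counts (TMM, linear axes from 0) of the 9 genes in each of 14 libraries, by genotype and treatment; horizontal lines are group means, bars are SD (cut at 0), and the open diamond is the library labelled Smad4 KO on water replicate 1. Bmp3 stands at 622 to 787 in the 3 Smad4 KO libraries after DSS and at 229 to 302 in the 3 WT libraries after DSS, and the diamond lies among the WT libraries for Bmp3.

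Bmp3 (ENSMUSG00000029335, chromosome 5 of mm9 from 99283458 to 99309979, plus strand) encodes an atypical member of the family, known to bind activin type II receptors and to oppose signalling by other BMPs. In WT it had 277, 224, 120.2 and 324 normalized counts in replicates 1 to 4 on water and 302, 241 and 229 in replicates 1 to 3 after DSS. In Smad4 KO it had 222, 864, 848 and 503 on water and 622, 787 and 629 after DSS. After DSS all Smad4 KO libraries lay above all WT libraries, as in 10.4% of all genes. On water the Smad4 KO libraries other than the one with WT-level Smad4 lay above all WT libraries, as in 7.26% of all genes.

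After DSS the Bmp3 mean was 679 ± 93.2 (SD, n = 3) in Smad4 KO against 258 ± 39.0 (SD, n = 3) for WT, 2.64-fold apart (log2 fold change 1.40 ± 0.15 (SE), adjusted p = 0.0043). Leaving out each of the 6 libraries in turn kept the log2 fold change between 1.29 and 1.53 and the adjusted p between 0.0059 and 0.027. The fit without WT replicate 3 holds only libraries of prefix D (1.33 ± 0.17, adjusted p = 0.023). The call was lost in models that take the spread from more libraries. The adjusted p was then 0.60 with all 14 libraries in 1 model and 0.15 with the 13 that leave out Smad4 KO on water replicate 1, at the same estimate of 1.40, and 0.59 with the name prefix as a block in all 14, at 1.32. It ran from 3.4e-14 in DESeq2 to that 0.60 over 15 alternatives, 12 of which called Bmp3.

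On water the Bmp3 log2 fold change over all 8 libraries was 1.37 ± 0.40 (adjusted p = 0.16), from 236 ± 87.6 (SD, n = 4) in WT to 609 ± 307 (SD, n = 4) in Smad4 KO. Without the library labelled replicate 1, the Smad4 KO mean was 738 ± 204 (SD, n = 3), the log2 fold change was 1.65 ± 0.32 (adjusted p = 0.12), and the groups no longer overlapped, as 7.26% of all genes did in that direction. Bmp3 passed with 13 libraries in 1 model (1.64 ± 0.27, adjusted p = 0.0092, where 7.59% of all genes were called), with all 14 in 1 model (adjusted p = 0.035, 8.44% of all genes called) and in DESeq2 (adjusted p = 0.022), and its adjusted p ran up to 0.39 over 17 alternatives, 4 of which called it. Prefixes Z and MP hold both genotypes on water, with 1 WT library each, too few for a value within a prefix. DSS against water gave Bmp3 log2 fold changes of 0.12 ± 0.29 in WT and 0.16 ± 0.37 in Smad4 KO (adjusted p = 0.83 and 0.96), both smaller than their errors, and -0.11 ± 0.23 in Smad4 KO without replicate 1 on water (adjusted p = 0.95). The difference between these responses was 0.03 ± 0.52 (adjusted p = 0.99), or -0.24 ± 0.40 without Smad4 KO on water replicate 1.

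Fibroblast transcripts were higher in many of the same libraries. The summed normalized counts of 7 fibroblast markers ran from 7.24 to 38.9 in WT and from 142 to 257 in Smad4 KO after DSS, and from 17.6 to 80.0 in WT and from 58.6 to 490.1 in Smad4 KO on water. Of the 7, Lum and Dpt had at most 3 counts in every library, 4 were tested, and edgeR and DESeq2 both called Col1a1, Col1a2 and Col3a1 higher in Smad4 KO after DSS. Of all genes edgeR called 0.331% higher there, and DESeq2 called 3.3% in either direction. On water edgeR called none of the 4, with or without replicate 1. An unadjusted p under 0.05 was found for 3 and 2 of them, and for 20.4% and 18% of all genes. DESeq2 called Dcn and 5.08% of all genes. On water the fibroblast sums of Smad4 KO replicates 1 to 4 were 216, 58.6, 148 and 490.1, with Bmp3 at 222, 864, 848 and 503. Those of WT replicates 1 to 4 were 32.0, 23.6, 17.6 and 80.0, with Bmp3 at 277, 224, 120.2 and 324. In epithelium counted in bulk, a larger share of 1 cell type and more RNA per cell cannot be told apart. Surface colonocyte markers (6 genes) summed to 47736 to 60961 in Smad4 KO and 62041 to 80422 in WT after DSS. EdgeR called 3 of the 6 lower there, as it did 0.416% of all genes. On water these markers summed to 48948 to 71079 in Smad4 KO and 79119 to 97074 in WT, also without overlap. There edgeR called none of them, and 4 had an unadjusted p under 0.05, as 20.4% of all genes had. DESeq2 called Car1 there, beside 5.08% of all genes. The library labelled Smad4 KO replicate 1 had the lowest of these sums, 48948. The 6 Hox genes taken as markers of the distal colon summed to 6810 to 6875 in Smad4 KO and 6573 to 9254 in WT after DSS. On water their sums were 11056, 4153, 6590 and 6665 in Smad4 KO replicates 1 to 4. In WT replicates 1 to 4 on water the Hox sums were 8138, 12300, 8965 and 7155. The part of the fibroblast, surface and Hox markers in the Bmp3 difference was not tested.

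**Figure D2:**
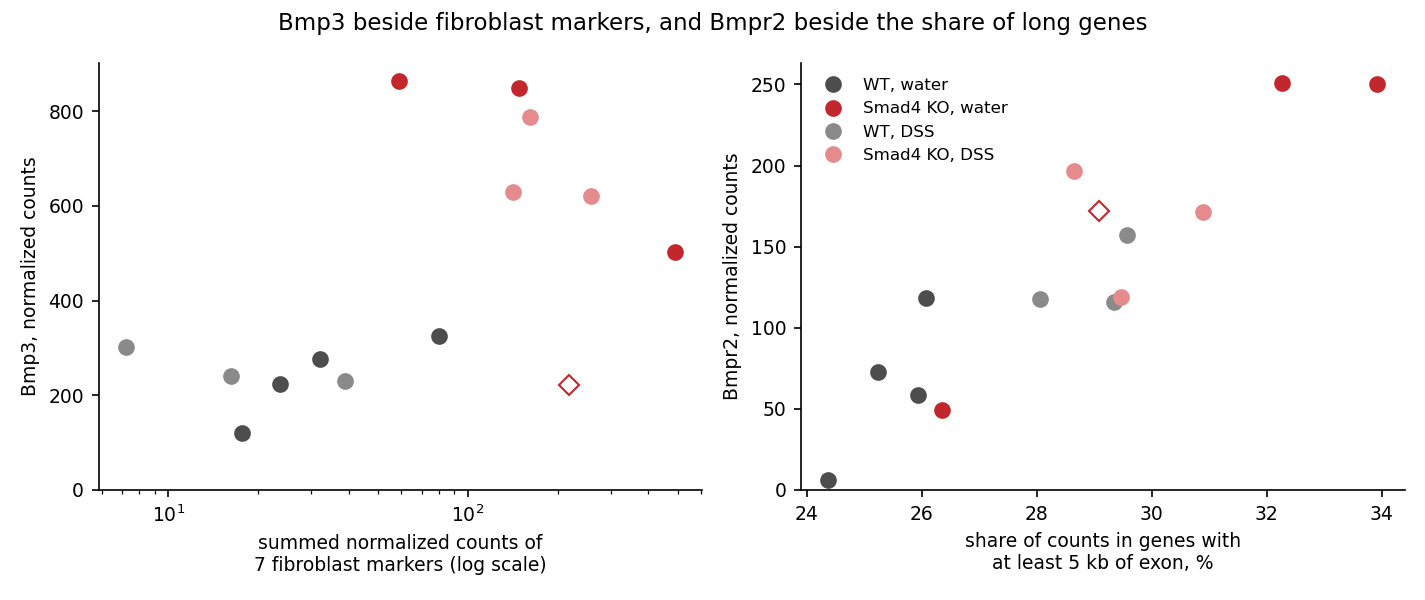
Left, Bmp3 against the summed normalized counts of 7 fibroblast markers (log axis) in 14 libraries; right, Bmpr2 against the share of counts in genes with at least 5 kb of exon (%); colours are the groups and the open diamond is the library labelled Smad4 KO on water replicate 1. After DSS the fibroblast sums run from 7.24 to 38.9 in WT and from 142 to 257 in Smad4 KO. The diamond has a fibroblast sum of 216 with Bmp3 at 222, and Bmpr2 is lowest, at 6.31, in the library with the lowest share of long genes, 24.4%.

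Bmp2 (ENSMUSG00000027358, chromosome 2 from 133377895 to 133388621, plus strand) encodes a canonical agonist that signals through Bmpr1a. On water it had 679, 941, 944 and 436 normalized counts in WT replicates 1 to 4 and 844, 720.1, 1358 and 875 in Smad4 KO replicates 1 to 4. After DSS it had 613, 773 and 904 in WT and 374, 577 and 563 in Smad4 KO. The Smad4 KO libraries after DSS were thus below the WT libraries after DSS and below all 4 Smad4 KO libraries on water, while on water the genotypes overlapped.

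After DSS Bmp2 averaged 505 ± 114 (SD, n = 3) in Smad4 KO against 763 ± 146 (SD, n = 3) for WT. Its log2 fold change of -0.59 ± 0.19 did not pass (adjusted p = 0.19, and 0.052 to 0.999 over 15 alternatives, none of which called it). The groups did not overlap, as 11.4% of all genes did in the lower direction. On water the difference was 0.34 ± 0.26 (adjusted p = 0.49), or 0.40 ± 0.29 without the library labelled Smad4 KO replicate 1. DSS against water gave 0.02 ± 0.25 in WT (adjusted p = 0.97) and -0.91 ± 0.24 in Smad4 KO (adjusted p = 0.57), or -0.96 ± 0.27 without replicate 1 on water (adjusted p = 0.66). In Smad4 KO the groups did not overlap with or without that library, as 4.28% and 6.47% of all genes did in the lower direction. The difference between the responses, -0.94 ± 0.38, did not pass either (adjusted p = 0.64), nor did it without that library (-0.99 ± 0.40, adjusted p = 0.58). Across the 15127 genes 0.00661% were called for that difference, no member was, 1 member, Bmp2, had an unadjusted p under 0.05 beside 7.5% of all genes, and DESeq2 called no member and 0.0529% of all genes.

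The order of Bmp2 and Bmp3 in Smad4 KO after DSS was the reverse of that in WT. Per length, the level of Bmp3 exceeded that of Bmp2 in all 3 of these libraries and in Smad4 KO on water replicate 2, and in none of the other 10 libraries. The ratio of the Bmp2 level to the Bmp3 level was 0.651 ± 0.129 (SD, n = 3) in Smad4 KO after DSS and 2.68 ± 0.843 (SD, n = 3) in WT after DSS. On water it was 3.47 ± 2.49 (SD, n = 4) in WT, from 1.18 to 6.87, and 1.74 ± 1.11 (SD, n = 4) in Smad4 KO, where the library labelled replicate 1 had the highest ratio, 3.32. The ratio was not tested, since it restates both genes.

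**Figure D3:**
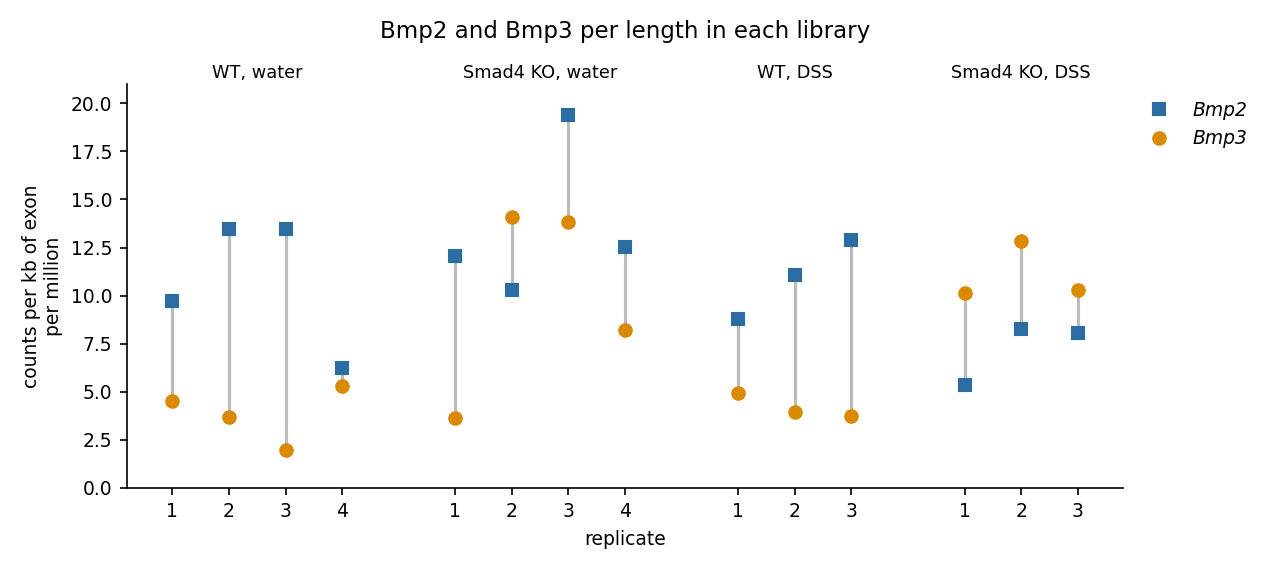
Levels of Bmp2 (squares) and Bmp3 (circles) in CPM per kb of exon, by replicate within each group of libraries; grey lines join the values of 1 library. Bmp3 lies above Bmp2 in 4 of 14 libraries, namely the 3 Smad4 KO libraries after DSS and Smad4 KO on water replicate 2.

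Bmp7 (ENSMUSG00000008999, chromosome 2 from 172693513 to 172765822, minus strand) encodes an agonist of another branch of the family, which uses Acvr1 among its type I receptors. On water it had 128, 24.4, 6.41 and 54.7 normalized counts in WT and 64.1, 54.0, 38.9 and 22.1 in Smad4 KO. After DSS it had 36.2, 18.0 and 48.9 in WT and 23.7, 19.4 and 35.0 in Smad4 KO. The groups overlapped in every comparison, and the WT libraries on water alone spanned the values of all the others. Log2 fold changes of Smad4 KO against WT were -0.40 ± 0.41 after DSS and -0.27 ± 0.69 on water (adjusted p = 0.68 and 0.85), and the errors were wider than the differences. On water it was -0.49 ± 0.79 without the library labelled Smad4 KO replicate 1, and over the fits that leave out 1 library it ran from -0.64 to 0.67, the last without WT replicate 1, so that its direction was not settled. DSS against water in Smad4 KO gave -0.77 ± 0.48, or -0.55 ± 0.51 without replicate 1 on water (adjusted p = 0.82 and 0.88).

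Bmp4 (ENSMUSG00000021835, chromosome 14 from 47003195 to 47010344, minus strand) encodes the close relative of Bmp2 that is known in the gut mainly from stromal cells. It had 0 counts in 8 of 14 libraries, 1 to 3 counts in 5, and 23 counts in Smad4 KO on water replicate 4, so that at this depth the groups could not be told from each other. That library also had the highest fibroblast sum, 490.1, and its part in the Bmp4 count was not tested. With a count of 0, up to 3 counts per library remain possible, for counting error only. Bmp4 shares 89 of its 2224 exon bases with 2 genes on the other strand.

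Neither type I receptor passed the test in a comparison of genotypes. Bmpr1a (ENSMUSG00000021796, chromosome 14 from 35223920 to 35316527, minus strand) encodes the main receptor for Bmp2 and Bmp4. On water it had 1185, 1047, 1226 and 816 normalized counts in WT and 1488, 1852, 2111 and 1049 in Smad4 KO. After DSS it had 1525, 1328 and 1458 in WT and 1968, 1577 and 1598 in Smad4 KO. All 3 Smad4 KO libraries after DSS lay above the 3 WT libraries, as in 10.4% of all genes, and all 3 WT libraries after DSS lay above the 4 on water, as in 12.8%.

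The Bmpr1a log2 fold change of Smad4 KO against WT was 0.26 ± 0.11 after DSS (adjusted p = 0.31). On water it was 0.60 ± 0.22 (adjusted p = 0.18), 0.65 ± 0.25 without the library labelled replicate 1 (adjusted p = 0.23), and 0.76 ± 0.18 without replicate 4 (adjusted p = 0.033, and 0.033 to 0.42 over 17 alternatives, 1 of which called it). In the fit without replicate 4, Bmp3 and Bmpr1a were called, beside 11.5% of all genes. Replicate 4 carried 21.4% mitochondrial counts, against 4.83% to 8.10% in the other 3 Smad4 KO libraries on water, and WT replicates 3 and 4 carried more, 30.6% and 32.8%, against 6.42% and 8.23% in the other 2. The part of this share was not tested. DSS against water in WT gave 0.43 ± 0.15 (adjusted p = 0.14), and 0.36 ± 0.14 within the 4 libraries of prefix D (adjusted p = 0.32). In Smad4 KO it gave 0.08 ± 0.22, or 0.05 ± 0.25 without replicate 1 on water. Of the 6351 exon bases of Bmpr1a, 290 lie in the gene Gm17110 on the other strand. Whether counting used strand is not given in the sources used here.

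Acvr1 (ENSMUSG00000026836, chromosome 2 from 58241055 to 58419568, minus strand), the other type I receptor, had 213, 276, 226 and 229 normalized counts in WT and 293, 218, 436 and 316 in Smad4 KO on water. After DSS the values were 305, 316 and 265 in WT and 309, 296 and 299 in Smad4 KO. The 3 Smad4 KO values after DSS lay within the WT range, and the log2 fold change there was 0.03 ± 0.12 (adjusted p = 0.93). On water it was 0.42 ± 0.23 (adjusted p = 0.32), or 0.46 ± 0.26 without the library labelled Smad4 KO replicate 1 (adjusted p = 0.37).

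Neither type II receptor passed. Bmpr2 (ENSMUSG00000067336, chromosome 1 from 59821481 to 59927703, plus strand) encodes the type II receptor specific to BMPs. On water it had 58.3, 72.4, 119 and 6.31 normalized counts in WT, the last from 3 reads counted, and 172, 251, 250.1 and 49.4 in Smad4 KO. After DSS it had 116, 118 and 157 in WT and 197, 171 and 119 in Smad4 KO. On water replicates 2 and 3 of Smad4 KO lay above all WT libraries, as did replicate 1, whose Smad4 is at the WT level, and replicate 4 lay below 3 of the WT libraries. After DSS the groups overlapped.

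The Bmpr2 log2 fold change of Smad4 KO against WT was 1.48 ± 0.62 on water (adjusted p = 0.21), 1.51 ± 0.70 without the library labelled replicate 1 (adjusted p = 0.28), and 0.32 ± 0.22 after DSS (adjusted p = 0.54). With a block for the replicate number, which the labels do not tie to anything shared, it was 1.68 ± 0.33 on water (adjusted p = 0.043, where 3.13% of all genes were called), and over 17 alternatives its adjusted p ran up to 0.44, with 1 call. DSS against water gave 1.01 ± 0.57 in WT (adjusted p = 0.30) and -0.15 ± 0.45 in Smad4 KO (adjusted p = 0.97), and the difference between them was -1.16 ± 0.79 (adjusted p = 0.70). Without Smad4 KO on water replicate 1 the last values were -0.17 ± 0.51 and -1.19 ± 0.84. Bmpr2 was lowest, at 6.31 and 49.4, in the 2 libraries of prefix MP. Genes with at least 5 kb of exon took 24.4% to 26.1% of the counts in WT on water, 26.4% to 33.9% in Smad4 KO on water, 28.1% to 29.6% in WT after DSS and 28.6% to 30.9% in Smad4 KO after DSS. With a trend over gene length removed from the library offsets, the Bmpr2 difference on water stayed at 1.48, and that of Bmpr1a went from 0.60 to 0.42. That trend used annotated exon length, which for Bmpr2 is 3507 bases, only 393 of them noncoding. The unchanged value therefore cannot show what part the share of long genes had, and that part was not tested.

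Acvr2a (ENSMUSG00000052155, chromosome 2 from 48669629 to 48758789, plus strand) encodes a type II receptor shared with activins, of the class that Bmp3 is known to bind. On water it had 436, 410.1, 317 and 244 normalized counts in WT and 483, 568, 839 and 322 in Smad4 KO. After DSS it had 510.1, 447 and 454 in WT and 581, 507 and 512 in Smad4 KO. All 3 WT libraries after DSS were above the 4 WT libraries on water, as in 12.8% of all genes, and the genotypes overlapped in both treatments. Log2 fold changes of Smad4 KO against WT were 0.65 ± 0.28 on water (adjusted p = 0.23), or 0.71 ± 0.32 without the library labelled replicate 1 (adjusted p = 0.27), and 0.19 ± 0.11 after DSS (adjusted p = 0.47), and that of DSS against water in WT was 0.41 ± 0.20 (adjusted p = 0.24), or 0.18 ± 0.15 within prefix D. With the prefix as a block, the difference on water was 0.59 ± 0.17 (adjusted p = 0.038, where 13.3% of all genes were called), the only call in 17 alternatives, whose adjusted p ran up to 0.55. Of the 5686 exon bases of Acvr2a, 446 lie in Orc4 on the other strand.

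Bambi (ENSMUSG00000024232, chromosome 18 from 3507955 to 3516402, plus strand) encodes a receptor-like protein without a kinase domain that blocks signalling by type I receptors. It had 152, 135, 109 and 154 normalized counts in WT and 174, 152, 85.0 and 166 in Smad4 KO on water. After DSS it had 140.2, 90.8 and 102 in WT and 107, 85.3 and 117 in Smad4 KO. No group stood apart from another. The log2 fold change of Smad4 KO against WT was -0.10 ± 0.23 after DSS (adjusted p = 0.87) and 0.07 ± 0.28 on water (adjusted p = 0.91), which became -0.03 ± 0.32 without the library labelled Smad4 KO replicate 1. DSS against water gave -0.31 ± 0.24 in WT and -0.48 ± 0.30 in Smad4 KO (adjusted p = 0.46 and 0.82), or -0.38 ± 0.33 in the latter without that library.

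**Figure D4:**
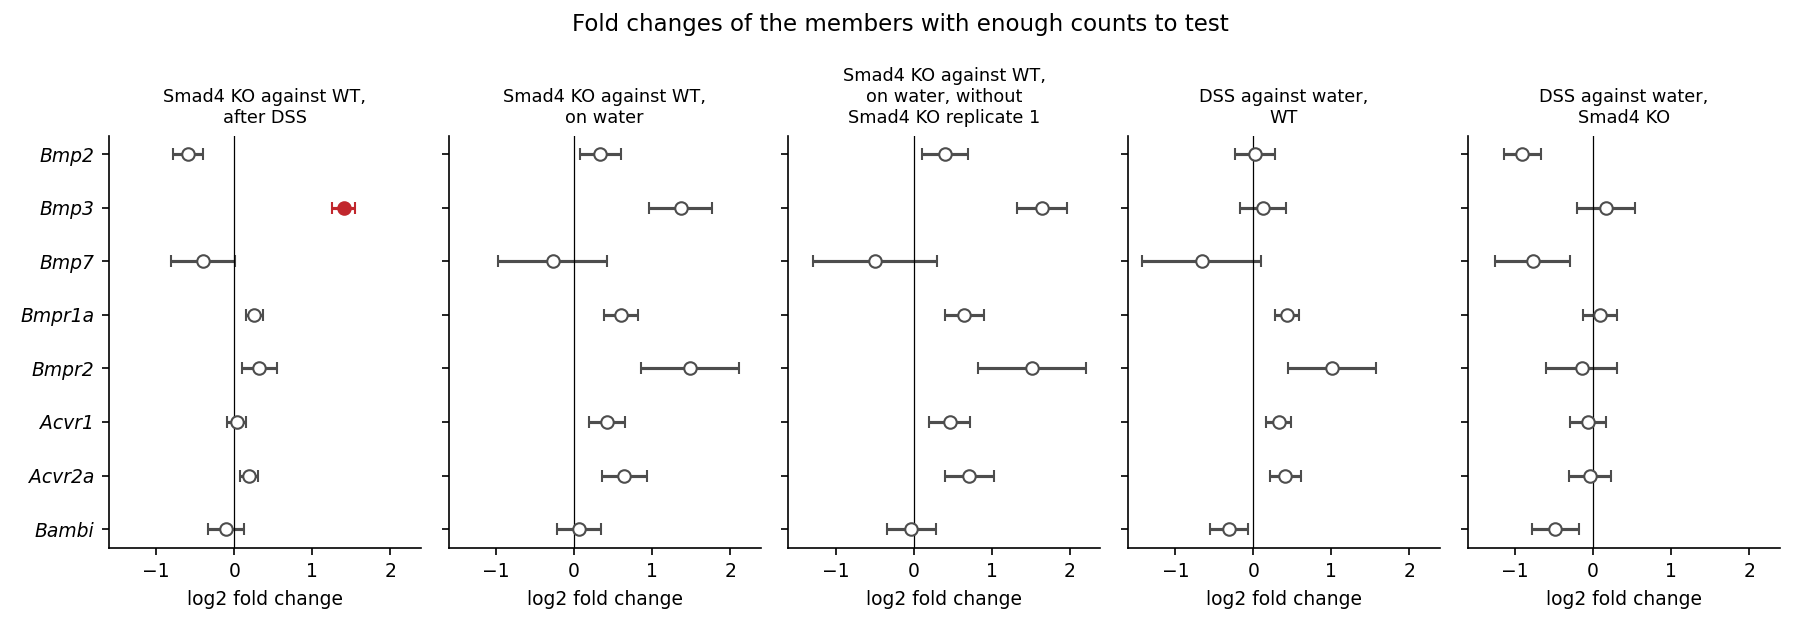
Log2 fold changes with standard errors (bars) of the 8 tested genes in 5 fits of edgeR's quasi-likelihood test; the filled red point has an adjusted p under 0.05 and open points do not. Bmp3 after DSS, at 1.40, is the only filled point, and the 4 receptors lie to the right of 0 in both genotype comparisons. Acvr1 after DSS, at 0.03, lies there by less than its error.

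The 4 receptors all had positive log2 fold changes of Smad4 KO against WT, from 0.42 to 1.48 on water (0.46 to 1.51 without replicate 1) and from 0.03 to 0.32 after DSS. None was called in these fits. The value of Acvr1 after DSS, 0.03 ± 0.12, amounts to no difference. It ran from -0.04 to 0.09 when 1 library was left out. The median over the 8 tested members was 0.51 on water (0.55 without replicate 1) and 0.11 after DSS, beside medians of -0.01 and 0.00 over all genes tested. Though the comparisons on water and after DSS share no library, within each the members share libraries, depth and the shift in long genes. The members are not replicates of a condition, and their shared sign was not tested.

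For each tested member, the 3 genes with the most similar profile over the 14 libraries were taken by Pearson's r of log2 normalized counts among 11555 genes. For Bmp3 they were 6330403L08Rik, B3galt2 and Ptplad2 (r = 0.90, 0.90 and 0.89), and for Bmp2 they were Cdh1, the epithelial cadherin, Klf6 and 9130404H23Rik (r = 0.83, 0.83 and 0.80). Bmpr1a followed Usp9x, C1galt1 and Rif1 (r = 0.98, 0.97 and 0.97), Bmpr2 followed Gatad2b, 1110020G09Rik and Klhl28 (r = 0.98, 0.97 and 0.97), and Acvr2a followed Nup155, Iws1 and Zfp869 (r = 0.98, 0.95 and 0.95). Acvr1 (Gpr110, Ankrd44 and Mfsd8), Bmp7 (Arhgap19, Sae1 and Ift80) and Bambi (Glrx2, Pcgf1 and Ang) had highest values of 0.88, 0.87 and 0.82. The values of r describe libraries that also differ in depth, mitochondrial share and the share of long genes, and no test was made.

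Other ligands of the family were scarce. Of 12 listed, 7 had at most 3 counts in every library, among them Bmp5 and Inhba, 3 were tested and none was called in any of the 5 comparisons by edgeR or DESeq2, with 1 at an unadjusted p under 0.05, in DSS against water in Smad4 KO. After DSS, Bmp8a averaged 71.6 ± 17.4 (SD, n = 3) normalized counts in WT libraries against 56.9 ± 20.0 (SD, n = 3) for Smad4 KO, and Bmp8b 12.9 ± 1.11 (SD, n = 3) against 16.0 ± 6.66 (SD, n = 3). Bmp8a and Bmp8b are near-identical neighbours, and how reads were split between them is uncertain. Bmp6 had at most 18 counts.

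Among the other receptors and co-receptors 7 of 10 were tested. EdgeR called none in the 5 comparisons, with 0 to 3 at an unadjusted p under 0.05. DESeq2 called 1, Rgmb, as lower with DSS in WT (-0.70 ± 0.15, adjusted p = 0.00027), where 11.7% of all genes were called. The co-receptor Rgmb and the activin type I receptor Acvr1b were more abundant per length than any of the 9 members in the mean of every group. Their levels in WT on water were 25.8 ± 3.31 (SD, n = 4) and 16.1 ± 6.43 (SD, n = 4) CPM per kb, beside 8.55 ± 1.48 (SD, n = 4) for Bmpr1a. After DSS the log2 fold changes of Smad4 KO against WT were 0.02 ± 0.09 for Rgmb, 0.02 ± 0.11 for Acvr1b, and that of the nodal receptor Acvr1c was smaller than its error.

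Of 20 extracellular antagonists and modulators, 9 had at most 3 counts in every library, among them Nog and Grem1. Of the 20, 7 were tested and none was called by edgeR or DESeq2 in the 5 comparisons, with at most 1 at an unadjusted p under 0.05 in edgeR. Twsg1, which binds BMPs and chordin, averaged 862 ± 75.9 (SD, n = 3) normalized counts in WT against 1016 ± 63.6 (SD, n = 3) for Smad4 KO after DSS. For Crim1, a transmembrane BMP-binding protein, these means were 627 ± 46.9 (SD, n = 3) against 589 ± 62.6 (SD, n = 3). Nbl1, an antagonist of the DAN family, had 111 ± 70.2 (SD, n = 3) against 60.8 ± 41.3 (SD, n = 3).

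Of 9 listed BMP target genes 7 were tested, and 2 of them, Id1 and Id3, inhibitors of helix-loop-helix transcription factors, were called lower in Smad4 KO after DSS by edgeR, where 0.416% of all genes were. DESeq2 called 5, adding Id2, Smad6 and Smad7, where 3.3% of all genes were called in either direction. Id1 had 4950, 4256 and 5073 normalized counts in WT and 1507, 1824 and 1849 in Smad4 KO (log2 fold change -1.46 ± 0.12, adjusted p = 0.0018). Id3 had 1026, 791 and 1233 in WT and 41.2, 49.4 and 139 in Smad4 KO (-3.73 ± 0.38, adjusted p = 0.0041). The genotypes did not overlap for either gene, as in 11.4% of all genes in the lower direction. All 7 targets had negative values, with a median of -1.03 beside 0.00 over all genes tested. That of Id4, -0.0011 ± 0.29, was far smaller than its error and amounts to no difference. With all 14 libraries in 1 model neither Id gene passed (adjusted p = 0.71 and 0.70), and with 13 both did (0.026 and 0.025).

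On water edgeR called no target over all 8 libraries. An unadjusted p under 0.05, which 20.4% of all genes had, was found for 5 targets. Of these Id1, Id3, Smad6 and Atoh8 were lower in Smad4 KO, and Id4 was higher (log2 fold change 0.79 ± 0.32). DESeq2 called Smad6 and Atoh8, with 5.08% of all genes called. The model of all 14 libraries called Smad6, Atoh8 and Id1, with 8.44% of all genes called. The library labelled Smad4 KO replicate 1 had 5955 normalized counts of Id1 and 1216 of Id3, against 942 to 1795 and 4.69 to 81.0 in the other 3. Without it Id1 (-2.32 ± 0.27, adjusted p = 0.0082), Id3 (-5.49 ± 0.62, adjusted p = 0.0082) and the inhibitory Smad6 (-1.64 ± 0.23, adjusted p = 0.028) were called lower by edgeR, where 0.0859% of all genes were called. Among 8 SMAD and Smurf genes, edgeR called Smad4 lower after DSS and DESeq2 called Smad4, Smad6 and Smad7. On water edgeR called none, with 3 at an unadjusted p under 0.05, or Smad4 and Smad6 without that library, and DESeq2 called Smad6. The receptor SMADs Smad1 and Smad5 were called by neither tool after DSS. Smad1 averaged 1972 ± 163 (SD, n = 3) in WT against 1764 ± 149 (SD, n = 3) for Smad4 KO, and Smad5 averaged 935 ± 30.1 (SD, n = 3) against 1096 ± 74.0 (SD, n = 3).

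**Figure D5:**
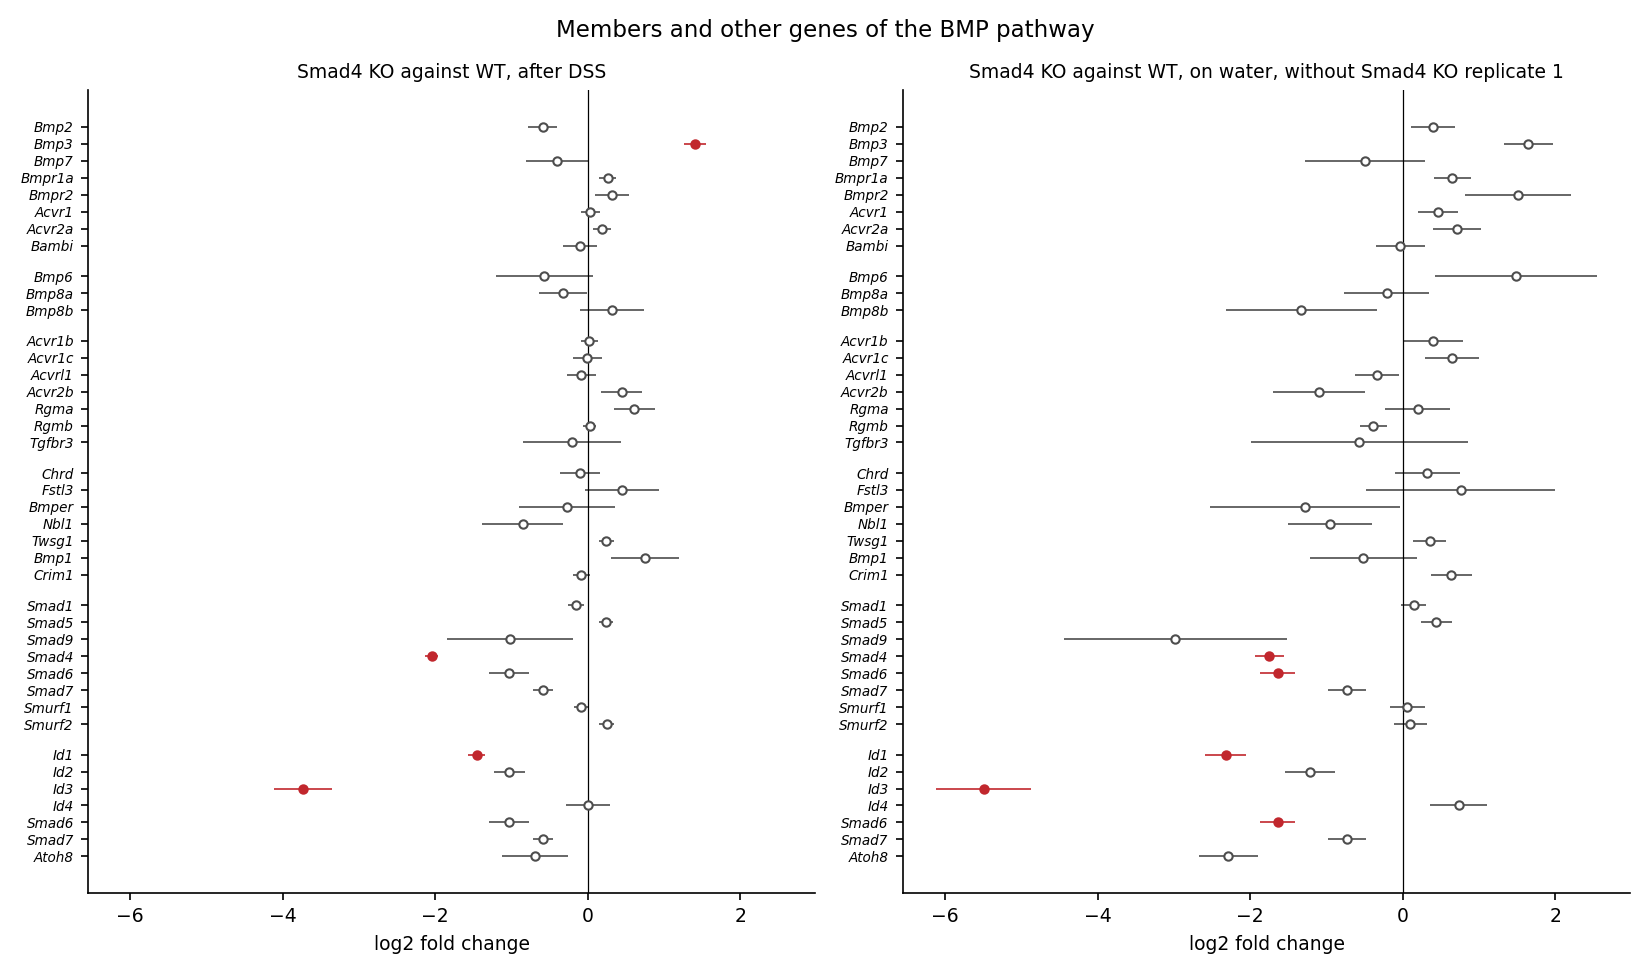
Log2 fold changes of Smad4 KO against WT with standard errors (bars) for the members and the tested genes of 5 lists, after DSS (left, 6 libraries) and on water without the library labelled Smad4 KO replicate 1 (right, 7 libraries); filled red points have an adjusted p under 0.05 (edgeR), and Smad6 and Smad7 stand in 2 lists. Bmp3, at 1.40, is the only filled point above 0 after DSS, while Smad4, Id1 and Id3 are filled below 0 in both panels.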

How the data were processed

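The authors aligned 150-bp paired-end poly(A) reads to mm9 with Hisat2 v2.0.5 and counted them on genes with featureCounts v1.5.0-p3, and deposited whole-number counts without normalization. The annotation version and strand setting are not given in the sources used here. The study's own tests were pairwise in DESeq2. Libraries were grouped by their deposited labels.

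Members were matched through GENCODE M1, which lists 37310 of 37680 genes. A gene entered the tests with 10 or more counts in 3 or more libraries, and edgeR 4.0.16 was used (TMM, quasi-likelihood test, two-sided), fitted on the libraries of each comparison, and in a model of all 14 for the difference of the DSS responses, with Benjamini-Hochberg adjustment over all 15127 genes. SE is the log2 fold change over the square root of F. Normalized counts used TMM factors over 14 libraries. Levels per length used the union of exons. Alternatives were DESeq2 1.42.0, other normalizations and filters, models of 13 or 14 libraries, each library left out, and blocks of name prefix or replicate number. The removal of a length trend and the use of prefix D alone were added after the data were seen. The scripts were tested on simulated data. R 4.3.3 and Python 3.11.15 were used.

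The members were taken by name, without regard to their values, whereas the lists and tests were chosen with earlier results of these data known. Named are all members, Smad4, the list genes called in a comparison or otherwise up to 3 of the highest in a list, the 3 genes most like each member (mean of at least 50 normalized counts, pseudocount 1) and the markers. Bmp5, Inhba, Nog, Grem1, Smad1, Smad5, Smad6, Smad7, Id2, Id4, Atoh8, Car1 and Dcn were named after their values were seen. Counting limits cover counting error only.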

Additional observations from a re-analysis of the deposited data

Results flagged for a closer look

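Bmp4 in Smad4 KO on water replicate 4 had 24.2 normalized counts, from 23 counts, while the other 3 libraries of the group had 0 or 1 count. Its gap to the nearest of them was 0.967 of the group's range, above Dixon's 95% critical value for 4 libraries. It was the only one flagged of 18 groups of 4 libraries. Chance flags about 1 in 20 for normally distributed values, a rate that need not hold for counts this close to 0.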

How the results depend on the processing

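After DSS, 1 member was called, and 0 with all 14 libraries in 1 model, with 13, or with the name prefix as a block. Leaving out 1 library kept the count at 1. On water, 0 members were called, and 1 in DESeq2, with all 14 libraries, with 13, with the replicate block or with the prefix block, and 0 to 2 when 1 library was left out. The 2, Bmp3 (log2 fold change 1.45, adjusted p = 0.049) and Bmpr1a, came without Smad4 KO replicate 4. The cause was not tested. Over all genes, the 113 called after DSS became 499 in DESeq2, 345 without a filter, 57 with the replicate block, 2 with 14 and 8 with 13 libraries, and 27 to 96 when 1 library was left out. The 1 gene called on water became 768 in DESeq2, 1276 with 14 and 1148 with 13 libraries, 473 with the replicate block and 1 to 1740 when 1 library was left out. DSS against water in WT gave 0 genes, 1777 in DESeq2, 457 without a filter, 54 with the replicate block and 0 to 418 when 1 library was left out, and in Smad4 KO it gave 1, 71 in DESeq2, 15 with the replicate block and 19 without a filter. Of 696 fold changes of members under alternatives 686 kept their side of the threshold and, where called, their direction, 3 lost the call (Bmp3 after DSS), 7 gained one and 0 called values reversed. Below the threshold, 52 had another sign than reported, in 15 of 40 pairs of member and comparison. Among levels, that of Acvr1 moved to 3.64 by the longest transcript. Replicate numbers are not tied to anything shared, and same-numbered libraries' deviations correlated between -0.081 and 0.056, but 0.35 for replicate 4 of the genotypes on water. The replicate block called Bmpr2 on water (1.68) and kept Bmp3 after DSS (1.40, adjusted p = 0.019). At this depth Bmp4 and most listed ligands and antagonists were out of reach of a test.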
